A study of Mus musculus with 18 samples.

Results

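The genes of the translation factors, the proteins that start, extend and end a polypeptide on the ribosome, were examined in liver RNA of mice that carry a ribosomal ambiguity mutation. The members were defined by a rule on gene symbols, as all genes of the *Eif1* to *Eif6*, *Eef1* and *Eef2* series together with the release factor genes *Etf1*, *Gspt1* and *Gspt2*, without the kinases, binding proteins and pseudogenes whose symbols start alike. The rule gave 61 of the 22524 genes listed in each mouse. Of these, 56 reached 10 counts in no fewer than 50% of the mice of 1 genotype or of both and were tested. The other 5 were *Eif2s3y* and *Eif4e1b*, listed at 0 in every mouse, and *Eif3j2*, *Eef1a2* and *Eef1akmt3*, with 60, 41 and 36 counts summed over all mice.

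The A226Y group held 10 female C57BL/6 mice aged 15 months of genotype Rps2-A226Y, and the WT group held 8 female C57BL/6 mice of the same age. Both groups carried Cre recombinase driven ubiquitously by the CMV promoter, and each mouse gave 1 library of liver RNA. The A226Y mice were heterozygous, with a wild-type *Rps2* allele beside the targeted one, and the methods describe them as mosaics. In some cells Cre had removed the transcriptional stop-cassette and left the A226Y allele active, and in others the floxed allele was still silenced. The targeted allele was made in 129/Sv embryonic stem cells and then backcrossed to C57BL/6. The question was how gene expression in the liver responds to error-prone translation, and mice with the silenced allele alone were not analysed here.

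Initiation begins when eIF2 brings the initiator tRNA to the small ribosomal subunit. The eIF4 group, built around the cap-binding protein eIF4E, the scaffold eIF4G and the helicase eIF4A, recruits the mRNA, and eIF1, eIF1A, eIF5 and eIF5B govern the choice of the start codon and the joining of the large subunit. During elongation eEF1A delivers each aminoacyl-tRNA, its exchange factor eEF1B recharges it with GTP, and eEF2 moves the ribosome on by a codon. At a stop codon eRF1, the product of *Etf1*, enters the ribosome together with the GTPase eRF3, the product of *Gspt1* or *Gspt2*. Liver makes most plasma proteins, a task that rests on these factors.

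Values are CPM, the deposited counts scaled to a common library size with TMM factors, and genotypes were compared with the quasi-likelihood test of edgeR. Adjusted p-values are Benjamini-Hochberg values over all 13353 tested genes, and a gene was called higher or lower when its value was under 0.05. Library totals were 23850565 to 62126131 counts. *Rps2* was measured at 46.9 to 83.0 CPM in the A226Y mice and 104 to 143 CPM in the WT mice, so that the genotypes did not overlap (log2 fold change −0.73, standard error (SE) 0.11, adjusted p = 0.000772), although mutant and wild-type transcripts were counted together. The WT mouse of animal number 33 stood apart, with a TMM factor of 0.8943 and the highest summed markers of hepatocytes (175000 CPM), B and plasma cells (726 CPM), T and NK cells (8.29 CPM) and erythroid cells (612 CPM). Among 9 lists of cell type markers, 2 of 8 hepatocyte genes were higher (*Tat* and *Cps1*) and 1 lower (*Serpina1c*), 2 of 6 stellate cell genes were lower (*Col1a1* and *Col3a1*), 1 of 6 macrophage genes was lower (*Clec4f*), and no gene of the other 6 lists was called. The summed hepatocyte markers ran from 73400 to 148000 CPM in A226Y (median 127000) and from 92700 to 175000 CPM in WT mice (median 110000), and the summed macrophage markers from 202 to 690 CPM (median 260) and from 295 to 541 CPM (median 394). The summed stellate cell markers, with both collagens included, ran from 302 to 361 CPM (median 340) and from 292 to 367 CPM (median 308). No marker listed was at 0 over all mice, and the part of cell composition in the results was not tested. In whole liver, fewer cells of a type and less RNA per cell cannot be told apart.

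In the A226Y mice, 13 of the 56 tested factor genes were called (23.2%), 7 higher and 6 lower, beside 14.3% of all tested genes. By direction the background was 7.27% higher and 7.03% lower. At an unadjusted p-value under 0.05 there were 19 members, 13 higher and 6 lower, beside 29.6% of all tested genes. The higher genes were *Gspt2*, *Eif5*, *Eif4g3*, *Eif4e*, *Eif1ax*, *Etf1* and *Eif4g2*, which act at initiation or release, and the lower ones were *Eif4e3*, *Eif4a2*, *Eif4b*, *Eef1a1*, *Eef2* and *Eef1d*, which act at initiation or elongation. The median log2 fold change over the tested members was 0.0291, and over all tested genes it was −0.00443. Summed over all members, the factor mRNAs took 7590 ± 344 CPM of the A226Y libraries and 7950 ± 312 CPM of the WT libraries (SD, n = 10 and 8). None of the 13 genes separated the genotypes without overlap, as 0.637% of all tested genes did. *Gspt2* passed the filter only through the A226Y mice, where it is higher. With 10 counts required in every mouse, 12 of 55 members were called (21.8%, beside 15.3% of all tested genes).

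**Figure D1:**
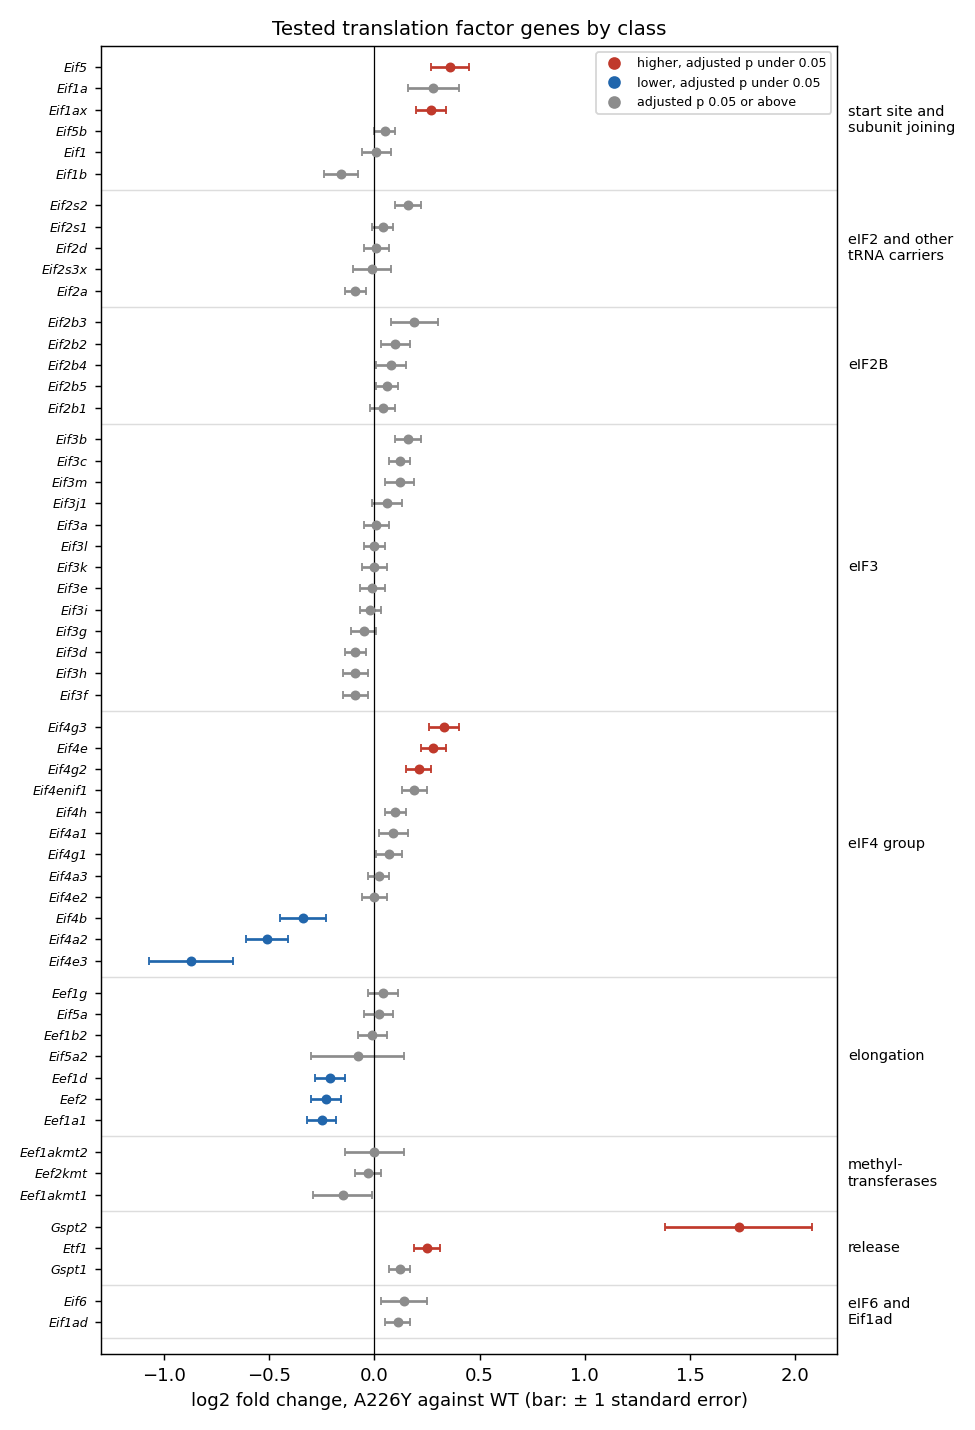
Log2 fold change of each of the 56 tested factor genes, A226Y against WT, grouped by class, with bars of 1 standard error. Red marks the 7 genes called higher, blue the 6 called lower and grey the 43 not called. The points of the eIF2, eIF2B and eIF3 classes lie between −0.09 and 0.19, while the eIF4 class runs from −0.87 to 0.33.

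The calls depended on how unmeasured variation was estimated. With 4 surrogate variables estimated from log2 CPM as covariates, 1 member, *Eif4e*, was called, beside 1.86% of all genes, and 13 members had an unadjusted p-value under 0.05, beside 2401 of the 13353 genes (18%). When the variables were estimated by svaseq from CPM, no member was called, beside 0.374% of all genes (10 had an unadjusted p-value under 0.05, beside 14.9%), and when they came from the unscaled counts 13 members were called, beside 10.8%, 12 of which were among the 13 above. DESeq2 called 16 members, beside 18.1% of all genes, and limma-voom 13, beside 1871 of the 13353 genes (14%).

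The genes of start codon selection and subunit joining included 2 higher of 6 tested, beside 7.27% of all tested genes, and none was lower. *Eif5* encodes the GTPase-activating protein of eIF2, which releases the initiator tRNA once the start codon is found. It was measured between 215 and 316 CPM in the A226Y mice (median 290) and between 160 and 254 CPM in the WT mice (median 224). In 8 of 10 A226Y mice it lay above every WT mouse, and 2, animals 15 and 29, fell within the WT range. The log2 fold change of *Eif5* (ENSMUSG00000021282, chromosome 12 of GRCm38, 111538016 to 111546752) was 0.36 (SE 0.09, adjusted p = 0.0145), and the two-sided exact permutation test of log2 CPM gave p = 0.00178. *Eif1ax*, on the X chromosome (ENSMUSG00000067194, 159372178 to 159389928), encodes a form of eIF1A, which holds the scanning ribosome open together with eIF1. Its expression spanned 50.9 to 72.4 CPM in A226Y (median 65.9) and 46.4 to 60.2 CPM in WT mice (median 55.5), and again 8 of 10 A226Y mice exceeded all WT mice. *Eif1ax* thus had a log2 fold change of 0.27 (SE 0.07, adjusted p = 0.0172, exact permutation p = 0.00288). After a per-library correction for transcript length or GC content it was 0.22 and 0.18 (adjusted p = 0.0584 and 0.0631), and with the surrogate variables 0.18 (adjusted p = 0.1).

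The other 4 genes of this class had log2 fold changes from −0.16 to 0.28, with 0.138 as the lowest adjusted p, and 1 of them, *Eif1b*, was called lower with svaseq on counts. *Eif1a*, the autosomal relative of *Eif1ax*, had a log2 fold change of 0.28 with an SE of 0.12 (52.5 ± 10.7 CPM against 43.3 ± 8.50 CPM; SD, n = 10 and 8), and its adjusted p was 0.138. The ratio of *Eif1a* to *Eif1ax* counts within each mouse differed between genotypes by 0.01 on the log2 scale.

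No gene of eIF2, the carrier of the initiator tRNA, or of eIF2B, its guanine nucleotide exchange factor, was called. Over all tested genes 14.3% were called, and 29.6% had an unadjusted p-value under 0.05. With 5 tested genes in each class, an absence of calls says little about the class. Of the 5 tested genes of the eIF2 class 1 had an unadjusted p-value under 0.05, as it did with DESeq2 and limma-voom, neither of which called a gene here. It was *Eif2s2*, the β subunit, at 38.0 ± 2.46 CPM in A226Y and 34.1 ± 3.19 CPM in WT mice (SD, n = 10 and 8; log2 fold change 0.16, SE 0.06, adjusted p = 0.0691), and 9 of 10 A226Y mice were above the WT mean. After the length correction *Eif2s2* was called higher. *Eif2s1* encodes the α subunit whose phosphorylation lowers initiation in the integrated stress response. Its mRNA was measured at 29.2 ± 1.89 CPM and 28.3 ± 1.54 CPM (log2 fold change 0.04, SE 0.05, adjusted p = 0.57), a difference smaller than either SD. *Eif2a*, with the most counts of this class, encodes an unconventional initiator tRNA carrier and not a subunit of eIF2. It was measured at 46.3 ± 3.07 CPM and 49.2 ± 2.28 CPM (log2 fold change −0.09, SE 0.05, adjusted p = 0.219) and was called lower after the GC correction. All 5 subunit genes of eIF2B had positive log2 fold changes, from 0.04 to 0.19, but none had an unadjusted p-value under 0.05 with edgeR, DESeq2 or limma-voom. The smallest p-value was that of *Eif2b3* (0.19, SE 0.11, adjusted p = 0.248) and the most counts those of *Eif2b5* (0.06, SE 0.05, adjusted p = 0.476).

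The eIF3 complex is the large scaffold that binds the small subunit and keeps it ready for the mRNA. None of its 13 tested genes was called by edgeR or limma-voom, beside 14.3% and 14% of all tested genes, while 2 (beside 29.6% of all) had an unadjusted p-value under 0.05, and DESeq2 called those 2, *Eif3b* and *Eif3c*, higher. The log2 fold changes ran from −0.09 to 0.16, 6 positive and 7 negative. *Eif3b*, with the smallest p-value, was measured at 125 ± 11.7 CPM in A226Y and 111 ± 8.32 CPM in WT mice (SD, n = 10 and 8; log2 fold change 0.16, adjusted p = 0.0835), and was called higher after the GC correction. *Eif3c* lay above the WT mean in all 10 A226Y mice (log2 fold change 0.12, SE 0.05, adjusted p = 0.0984). *Eif3a*, which carries the most counts of the complex, differed by 0.01 (SE 0.06).

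In the eIF4 group, which brings the mRNA to the ribosome, 6 of 12 tested genes were called, beside 14.3% of all tested genes, and the calls ran in both directions. The scaffold relatives *Eif4g3* and *Eif4g2* and the cap-binding gene *Eif4e* were higher, while *Eif4e3*, *Eif4a2* and *Eif4b* were lower. The 6 genes not called by edgeR had log2 fold changes from 0.00 to 0.19, and of these DESeq2 called *Eif4enif1* higher and the GC correction *Eif4h*.

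*Eif4g3* encodes a close relative of the scaffold eIF4G. It was measured at 46.0 to 65.1 CPM in the A226Y mice (median 51.9) and at 37.3 to 46.8 CPM in the WT mice (median 43.7). Animal 3 was the only A226Y mouse within the WT range, and the other 9 lay above it. The log2 fold change of *Eif4g3* (ENSMUSG00000028760, chromosome 4, 137993022 to 138208508) was 0.33 (SE 0.07, adjusted p = 0.00498, exact permutation p = 9.1e-05). With the surrogate variables from log2 CPM it was 0.19 (adjusted p = 0.0636), and with svaseq on CPM 0.16 (adjusted p = 0.174). *Eif4g2* encodes a scaffold relative that lacks the binding site for eIF4E and serves cap-independent initiation. Its expression was 538 to 696 CPM in A226Y (median 625) and 486 to 570 CPM in WT mice (median 546). Here too 9 of 10 A226Y mice exceeded every WT mouse. For *Eif4g2* (ENSMUSG00000005610, chromosome 7, 111067750 to 111083030) this gave a log2 fold change of 0.21 (SE 0.06, adjusted p = 0.0212, exact permutation p = 0.000548). It is among the longest of these transcripts, 7995 bases, and with the length correction its log2 fold change was 0.09 (adjusted p = 0.285). With the GC correction it was 0.15 (adjusted p = 0.0747). *Eif4g1*, which encodes the principal scaffold and is the scaffold gene with the highest level per length, was measured at 526 ± 26.9 CPM and 502 ± 41.3 CPM (SD, n = 10 and 8; log2 fold change 0.07, adjusted p = 0.455).

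*Eif4e* lay between 20.5 and 25.3 CPM in the A226Y mice (median 23.1) and between 17.1 and 22.7 CPM in the WT mice (median 18.7). Each A226Y mouse exceeded the WT mean, and 5 exceeded every WT mouse. For *Eif4e* (ENSMUSG00000028156, chromosome 3, 138526179 to 138559696) the log2 difference was 0.28 (SE 0.06, adjusted p = 0.00607, exact permutation p = 0.000548), and 0.20 with the GC correction (adjusted p = 0.0537). *Eif4e3* encodes an atypical member of the eIF4E family. It was measured at 5.70 to 11.1 CPM in A226Y mice (median 6.70) and at 6.67 to 22.3 CPM in WT mice (median 12.7). The WT mice were spread widely, with a high end in animal 14 and in animal 33, the mouse that stood apart, and 5 A226Y mice lay below all of them. *Eif4e3* (ENSMUSG00000093661, chromosome 6, 99625135 to 99666771) fell by 45.5%, a log2 fold change of −0.87 (SE 0.20, adjusted p = 0.00866, exact permutation p = 0.00361), and without any 1 mouse it stayed between −0.97 and −0.72 (−0.77 without WT animal 33). With the surrogate variables it was −0.23 (adjusted p = 0.258). Exons of *Gm20696* overlap those of *Eif4e3* on the same strand and that gene had a log2 fold change of −0.78 (adjusted p = 0.0151), so that reads of this stretch could not be assigned with certainty. *Eif4e2*, which encodes a cap-binding repressor of translation, was measured at 48.2 ± 4.70 CPM and 48.1 ± 2.85 CPM (log2 fold change 0.00, SE 0.06).

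*Eif4a2* encodes the second helicase of the cap-binding complex. Its expression spanned 97.4 to 162 CPM in the A226Y mice (median 115) and 125 to 210 CPM in the WT mice (median 168). All 10 A226Y mice were below the WT mean and 6 below every WT mouse, and the highest of them was animal 5. *Eif4a2* (ENSMUSG00000022884, chromosome 16, 23107444 to 23114136) fell by 29.9%, a log2 fold change of −0.51 (SE 0.10, adjusted p = 0.00332, exact permutation p = 0.000686), and with the surrogate variables it was −0.28 (adjusted p = 0.083). *Eif4a1*, the gene of the sister helicase, differed by 0.09 on the log2 scale (SE 0.07, adjusted p = 0.385), but 65.3% of the 50-base windows of its transcript also occur in other genes, so its count is uncertain. *Eif4b* encodes the protein that stimulates this helicase. It was measured at 208 to 403 CPM in A226Y (median 282) and 322 to 400 CPM in WT mice (median 370), with 7 A226Y mice below every WT mouse and 1, animal 5, above them. *Eif4b* (ENSMUSG00000058655, chromosome 15, 102073773 to 102097173) fell by 20.9%, a log2 fold change of −0.34 (SE 0.11, adjusted p = 0.0455, exact permutation p = 0.00521). It was not called in 13 of the 18 fits with 1 mouse left out, where its adjusted p reached 0.0839. The call was also lost with RLE scaling (adjusted p = 0.0512), library size scaling (0.0728) and no filter (0.0604). The same held with the corrections for length (0.051) and GC content (0.0639). In these 5 fits the log2 fold change was −0.34 to −0.30.

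Ratios of related factors were also taken within each mouse, which needs no scaling between libraries. Of 12 pairs chosen with earlier results of these data known, 10 could be computed, and 7 differed between genotypes by two-sided exact permutation tests with Benjamini-Hochberg adjustment over the 10. Each of these 7 pairs holds at least 1 gene already called in the same counts, so the ratios are not separate support for those calls. Ratios of other gene pairs were not computed as a background. The ratio of *Eif4e* to *Eif4e3* counts was 3.31 in A226Y and 1.58 in WT mice (geometric means), a difference of 1.07 on the log2 scale (exact permutation p = 0.00032, adjusted p = 0.0032), and it exceeded the WT mean in each of the 10 A226Y mice. *Eif4a1* counts were 0.197 of *Eif4a2* counts in A226Y and 0.131 in WT mice, a log2 difference of 0.59 (exact permutation p = 0.00119, adjusted p = 0.00396), again with 10 of 10 above. The log2 ratio of *Eif4g1* to *Eif4g3* differed by −0.25 and that of *Eif4g1* to *Eif4g2* by −0.14 (exact permutation p = 0.00548 and 0.00553, adjusted p = 0.00922 for both), and 10 and 9 of 10 A226Y mice were below the WT mean. These transcripts differ in length, 5638 bases for *Eif4g1* against 7995 for *Eif4g2* and 8134 for *Eif4g3*, and no length or GC correction was applied to the ratios. *Eif4e* to *Eif4e2* differed by 0.29 (exact permutation p = 0.0042, adjusted p = 0.00922). The ratios *Eif1* to *Eif1b* and *Eif5a* to *Eif5a2* differed by 0.18 and 0.15, within the spread between mice (exact permutation p = 0.0649 and 0.53).

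**Figure D2:**
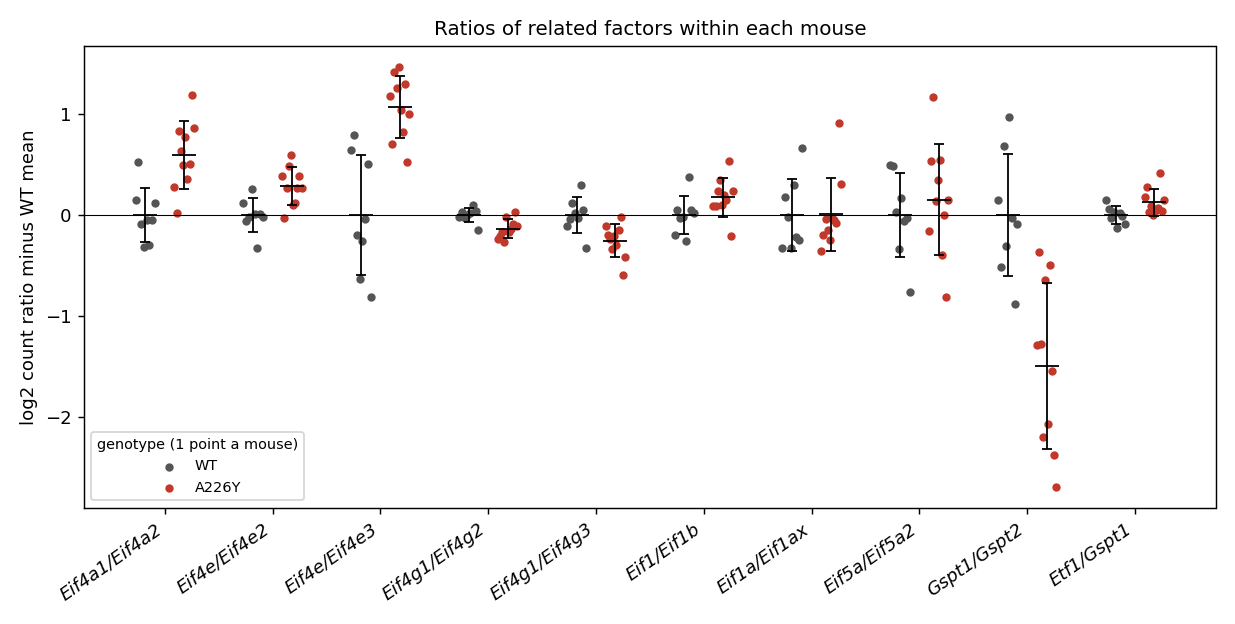
Log2 ratio of the counts of 2 related factors within each mouse, minus the mean of the WT mice; points are mice (8 WT in grey, 10 A226Y in red), and bars give the mean and SD. All 10 A226Y mice lie above the WT mean for *Eif4e*/*Eif4e3* and *Eif4a1*/*Eif4a2* and below it for *Gspt1*/*Gspt2* and *Eif4g1*/*Eif4g3*, and the ranges of the genotypes overlap in each pair.

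Among the elongation factors, 3 of 7 tested genes were lower, beside 7.03% of all tested genes, and none was higher. No gene of this class was higher at an unadjusted p-value under 0.05 with edgeR, DESeq2 or limma-voom. *Eef1a1*, which delivers aminoacyl-tRNA, and *Eef2*, which drives translocation, had the highest levels per length of all tested members. On the scale of CPM per kilobase of the longest annotated transcript, *Eef1a1* stood at 611 ± 72.7 in A226Y and 728 ± 24.2 in WT mice and *Eef2* at 550 ± 57.1 and 644 ± 41.7 (SD, n = 10 and 8).

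*Eef1a1* was measured at 912 to 1350 CPM in A226Y mice (median 1080) and at 1230 to 1350 CPM in WT mice (median 1310). The WT mice lay close together, and 8 of 10 A226Y mice were below all of them, with animals 5 and 15 as the exceptions. The log2 fold change of *Eef1a1* (ENSMUSG00000037742, chromosome 9, 78478449 to 78489151) was −0.25 (SE 0.07, adjusted p = 0.0234, exact permutation p = 0.00119), and −0.19 with the length correction (adjusted p = 0.0937). Of its 50-base windows 60.6% also occur in other genes, so its level is uncertain. *Eef2* ran from 1500 to 2090 CPM in A226Y (median 1660) and from 1840 to 2170 CPM in WT mice (median 1960), and 8 A226Y mice were below every WT mouse. *Eef2* (ENSMUSG00000034994, chromosome 10, 81176631 to 81182498) fell by 14.7%, a log2 fold change of −0.23 (SE 0.07, adjusted p = 0.0351, exact permutation p = 0.00183). *Eef1d* encodes the δ subunit of the exchange factor. It was measured at 58.9 to 85.5 CPM in A226Y (median 61.5) and 70.9 to 84.2 CPM in WT mice (median 74.3), and 8 A226Y mice were below all WT mice while animal 23 was above them. *Eef1d* (ENSMUSG00000055762, chromosome 15, 75894205 to 75909556) fell by 13.6%, a log2 difference of −0.21 (SE 0.07, adjusted p = 0.045, exact permutation p = 0.00599). *Eef2* lost its call in 9 and *Eef1d* in 14 of the 18 fits with 1 mouse left out, and both lost it with the corrections for length, where the log2 fold changes were −0.22 and −0.19 (adjusted p = 0.0508 and 0.0859), and GC content, where they were −0.16 and −0.14 (adjusted p = 0.142 and 0.186).

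The other 4 elongation genes had log2 fold changes from −0.08 to 0.04, with 0.733 as the lowest adjusted p. They included the other exchange factor subunits, *Eef1b2* at 166 ± 19.7 CPM and 167 ± 7.70 CPM and *Eef1g* at 17.1 ± 1.91 CPM and 16.6 ± 1.31 CPM (SD, n = 10 and 8), and *Eif5a*, which eases peptide bond formation at difficult sequences. Of the windows of *Eef1g* 64.3% are shared with other genes. The 3 tested methyltransferase genes of elongation factors were not called by edgeR, DESeq2 or limma-voom, beside 14.3%, 18.1% and 14% of all tested genes. None had an unadjusted p-value under 0.05 in any of them, beside 29.6% of all tested genes with edgeR. Of the 3 genes, *Eef2kmt* had the most counts (log2 fold change −0.03) and *Eef1akmt1* the smallest p-value (−0.15, SE 0.14).

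**Figure D3:**
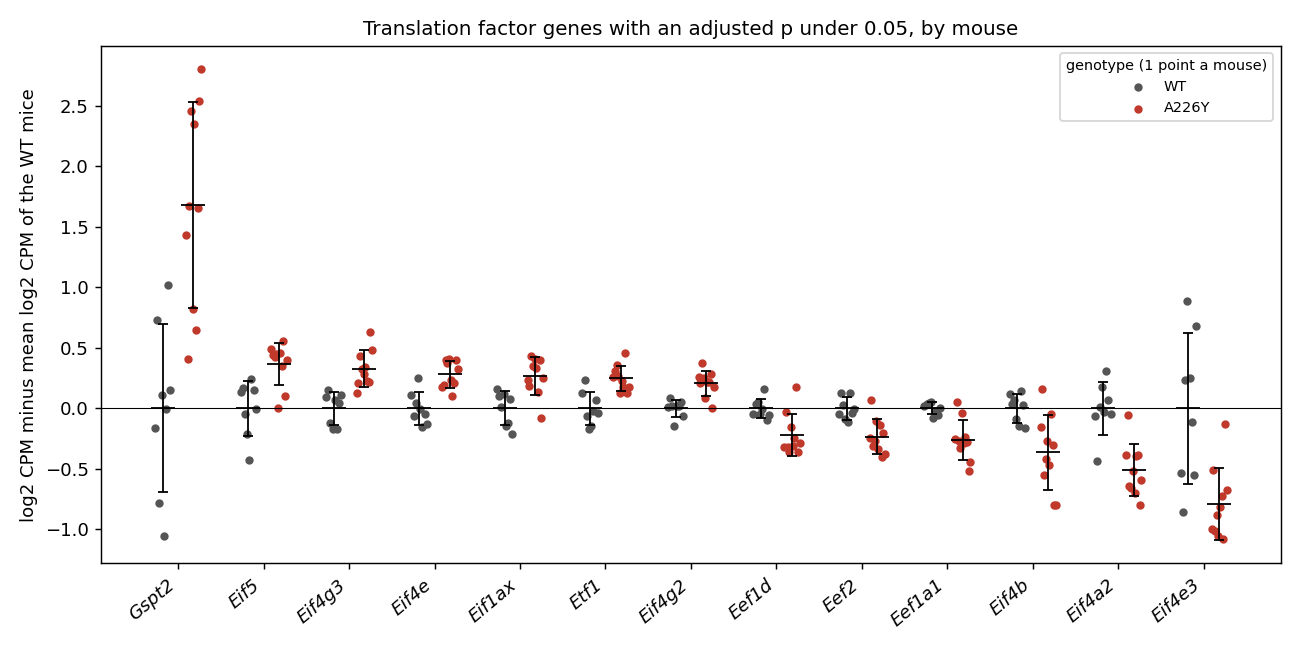
Log2 CPM of the 13 called genes in each mouse, minus the mean of the WT mice; points are mice (8 WT in grey, 10 A226Y in red), and bars give the mean and SD. *Gspt2* stands highest and *Eif4e3* lowest, and the A226Y mouse nearest to WT in several of the lower genes is animal 5.

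Several elongation factor mRNAs belong to the TOP class. These mRNAs start with a cytosine and a run of pyrimidines, through which their translation is tied to growth signals. A list of 9 factor genes with such mRNAs, all tested, was taken from textbook knowledge with earlier results of these data known. As a view of their annotated leaders, 30 bases around the longest pyrimidine run that begins in the first 100 bases of the 5′ leader of the longest annotated transcript are printed below, 5′ to 3′ on the strand of the gene, with the whole run in capitals. They were read from the GENCODE M21 transcripts (GRCm38), whose annotated starts are not measured starts. Only the run of *Eif3f* begins at the annotated start, and whether the others are the runs that open the mRNA in liver was not tested.
Eef1a1 (chr9:78481654-78481683, minus strand): gccttggacgTTCTTTTTCgcaacgggttt
Eef2 (chr10:81176634-81176663, plus strand): gacgtcagcggTCTCTTCCgccgcagccgc
Eef1d (chr15:75909290-75909319, minus strand): gcgggcgCCCTCCCTCTCCTTTgcagtcct
Eef1b2 (chr1:63176884-63176913, plus strand): tcagagggcgTTTCCCTTCgtttcggagtc
Eef1g (chr19:8967123-8967152, plus strand): actgCTCTCTCCTTTCCTCCTCCCTTgtct
Eif4b (chr15:102073845-102073874, plus strand): cggctccccgCCCCCTCCTggtttcacgtc
Eif3e (chr15:43282690-43282719, minus strand): gaacaagcgCTCCTTTCCCCCggcaagatg
Eif3f (chr7:108934417-108934446, plus strand): CTCTTTCTCggcaagatggcttctccggcc
Eif3h (chr15:51865464-51865493, minus strand): cctcacgCTTCTCTTTCTTCCTgtctggct

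The runs were 8 to 22 bases long, and the median of the longest run over 13149 genes was 6 bases. A run of at least 8 bases, as in *Eef2*, was found in 28.3% of those genes, one of at least 9, as in *Eef1a1*, *Eef1b2*, *Eif3f* and *Eif4b*, in 19.5%, and one of at least 15, as in *Eef1d* and *Eif3h*, in 2.78%. The longest, that of *Eef1g*, has 22 bases. The runs are a description of the annotated sequence. Of the 9 genes, 4 were lower (*Eef1a1*, *Eef2*, *Eef1d* and *Eif4b*) and none higher, beside 7.03% of all tested genes called lower. A negative log2 fold change was found in 8 of the 9, beside 6804 of all 13353 tested genes. The list's median log2 fold change was −0.0948, beside −0.00443 for all tested genes and 0.057 for the 47 tested members outside it, of which 7 were higher and 2 lower. The 5 genes not called had log2 fold changes from −0.09 to 0.04. No TOP gene was called with the length correction or the surrogate variables from log2 CPM (4 had an unadjusted p-value under 0.05 in each, beside 27.8% and 18% of all tested genes), and in 7 of the 18 fits with 1 mouse left out 1 remained called.

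Of the 3 release factor genes, *Etf1* and *Gspt2* were higher, beside 7.27% of all tested genes, and *Gspt1* had an unadjusted p-value under 0.05, beside 29.6%. *Gspt2* passed the filter only through the A226Y mice and was not tested when every mouse needed 10 counts. *Etf1* encodes eRF1, which recognises the stop codon. It was measured between 130 and 164 CPM in A226Y mice (median 141) and between 106 and 140 CPM in WT mice (median 117). Each of the 10 A226Y mice exceeded the WT mean, and 5 every WT mouse. The log2 fold change of *Etf1* (ENSMUSG00000024360) was 0.25 (SE 0.06, adjusted p = 0.0146, exact permutation p = 0.00105), and it kept its call with the corrections for length (0.25, adjusted p = 0.0205) and GC content (0.19, adjusted p = 0.0416). With the surrogate variables it was 0.14 (adjusted p = 0.246).

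*Gspt1* encodes the main form of eRF3, the GTPase partner of eRF1, at 95.5 ± 6.41 CPM in A226Y and 87.9 ± 6.56 CPM in WT mice (SD, n = 10 and 8). Its log2 fold change was 0.12 (SE 0.05, adjusted p = 0.152), and it exceeded the WT mean in 10 of 10 A226Y mice. *Gspt2*, an X-linked gene for a second form of eRF3 (ENSMUSG00000071723, chromosome X, 94636069 to 94643244), was scarce. Its expression was 0.336 to 1.76 CPM in the A226Y mice (median 0.801) and 0.121 to 0.511 CPM in the WT mice (median 0.262), which rests on 4 to 50 counts per mouse. Of the A226Y mice, 7 exceeded every WT mouse, and animals 5, 15 and 22 did not. *Gspt2* passed the filter only through the A226Y mice, as most WT mice had under 10 counts, so its call is not free of that selection. It was 3.33-fold higher, a log2 fold change of 1.73 (SE 0.35, adjusted p = 0.00444, exact permutation p = 0.000594), and 1.06 with the surrogate variables (adjusted p = 0.15). None of its 50-base windows occurs in another gene. Counts of *Gspt1* were 115 times those of *Gspt2* in A226Y and 324 times in WT mice (log2 difference −1.49, exact permutation p = 0.000686, adjusted p = 0.00343), so that *Gspt1* remained by far the more abundant form. The ratio of *Etf1* to *Gspt1* differed by 0.13 on the log2 scale (exact permutation p = 0.022, adjusted p = 0.0314), a call lost in 7 of the 18 fits with 1 mouse left out. It was also lost when medians were compared, where the difference was 0.07 (exact permutation p = 0.0538, adjusted p = 0.0672).

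Neither *Eif6*, which keeps the large subunit from joining too early, nor *Eif1ad* was called, and neither had an unadjusted p-value under 0.05 with edgeR, DESeq2 or limma-voom. Over all tested genes edgeR called 14.3%, and 29.6% had an unadjusted p-value under 0.05. *Eif6* was measured at 75.6 ± 17.0 CPM in A226Y and 68.5 ± 5.33 CPM in WT mice (SD, n = 10 and 8; log2 fold change 0.14, SE 0.11). The highest value, 117 CPM, was that of A226Y animal 29.

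The 13 called genes did not move equally in every mouse. In A226Y animals 7 and 11, all 7 higher genes were above every WT mouse and all 6 lower genes below every WT mouse. In animal 5, 5 of the 7 higher genes were above every WT mouse but none of the 6 lower genes was below every WT mouse, and 3 of these 6 were below the WT mean. Animals 22 and 29 had 3 of the 7 higher genes above every WT mouse, and 3 and 5 of the 6 lower genes below. The called genes also differed in transcript length and base composition. The median length was 4991 bases for the higher, 2775 for the lower and 2170 for the 43 uncalled genes, and the median GC content was 43.2%, 48.8% and 50.2%. With the length correction 8 members were called (14.3%, beside 11.5% of all genes), 7 of them among the 13, and with the GC correction 10 (beside 12.2% of all genes), also with 7 among the 13.

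**Figure D4:**
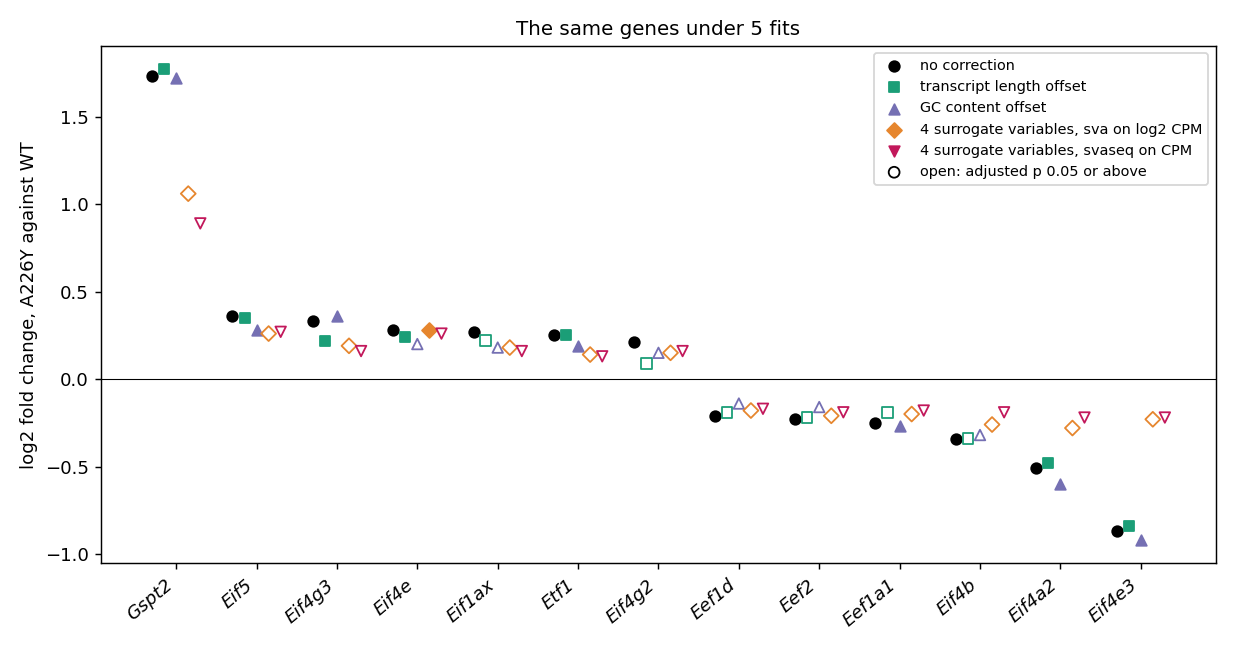
Log2 fold change of the 13 called genes without correction (black circles), with an offset for transcript length (green squares) or GC content (purple triangles), and with 4 surrogate variables from log2 CPM (orange diamonds) or from svaseq on CPM (pink triangles); filled symbols have an adjusted p under 0.05. Every gene keeps its sign, and with the surrogate variables *Eif4e3* moves from −0.87 to −0.23 and *Gspt2* from 1.73 to 1.06.

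Translation factors are in turn governed by kinases, binding proteins and recycling factors, of which a list of 40 genes was tested. Of these, 5 were higher and 2 lower (17.5%, beside 14.3% of all tested genes), and the median log2 fold change was 0.0133. *Eif4ebp1*, whose product binds eIF4E and blocks its contact with the scaffold, was measured at 28.8 to 34.9 CPM in the A226Y mice (median 31.2) and 35 to 45.5 CPM in the WT mice (median 38.8). Every A226Y mouse lay below every WT mouse (log2 fold change −0.33, SE 0.06, adjusted p = 0.00253). Such a lack of overlap was found in 1 of the 40 genes, beside 0.637% of all tested genes. *Eif4ebp3*, a relative of the same function, was higher, at 14.6 to 124 CPM (median 34.7) against 8.37 to 22.7 CPM (median 17.9; log2 fold change 1.51, SE 0.40, adjusted p = 0.0175), with 6 A226Y mice above every WT mouse and 3 below the WT mean. It was not called by limma-voom or with svaseq on counts. *Eef2k*, which encodes the kinase that inhibits eEF2, was lower in all 10 A226Y mice than the WT mean, at 6.67 to 13.7 CPM (median 9.92) against 13.2 to 16.7 CPM (median 13.8; log2 fold change −0.46, SE 0.13, adjusted p = 0.0195).

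The other higher regulators act on ribosome recycling or on the mRNA. *Abce1*, which splits ribosomes after termination, rose from 70.2 ± 7.88 CPM in WT to 87.2 ± 6.95 CPM in A226Y mice (SD, n = 8 and 10; log2 fold change 0.31, adjusted p = 0.00594). *Ddx3x*, a helicase that assists scanning, had a log2 fold change of 0.32 (adjusted p = 0.0183), *Ncbp1*, the large subunit of the nuclear cap-binding complex, of 0.24 (adjusted p = 0.0186), and *Paip1*, a partner of poly(A)-binding protein, of 0.17 (adjusted p = 0.0371). *Paip1* was not called with the GC correction, and neither *Paip1* nor *Ncbp1* was called with svaseq on counts. None of the 40 was called with the surrogate variables from log2 CPM, beside 1.86% of all tested genes. In that fit 5 of the 40 had an unadjusted p-value under 0.05, beside 18% of all tested genes.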

How the data were processed

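Liver RNA of 10 A226Y and 8 WT mice was sequenced as 1 library each. For every mouse the authors deposited a table of unnormalized read counts, whole numbers keyed by Ensembl gene identifiers. The methods name short single-end reads, RSEM and an Ensembl annotation, whereas the submitters' processing notes list bcl2fastq, fastp, STAR, featureCounts, MultiQC and GRCm38, so how reads matching several genes were counted is not settled. Symbols, lengths and coordinates were taken from GENCODE M21 on GRCm38, which matched 22214 of 22524 identifiers.

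Genes that reached 10 counts in no fewer than 50% of the mice of 1 genotype or of both were tested with edgeR 4.0.16 (R 4.3.3): TMM scaling, quasi-likelihood fit, no covariates, Benjamini-Hochberg adjustment over 13353 genes. The common biological coefficient of variation was 0.194. The standard error is the log2 fold change divided by the square root of F. Single values were compared with two-sided exact permutation tests over all divisions of the mice, and ratios were taken after adding 0.5 to each count. P-values weigh the difference between genotypes against the spread between mice. Counting error is small for all members but the scarce ones. No 2 mice of a genotype had counts within sampling noise of each other (chi-square per degree of freedom at least 20.1 in A226Y and 25.6 in WT).

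Members, classes, pairs and lists were chosen with earlier results of these data known. The genes named are every called member, the member with the most counts of each class, for classes with no call the member with the smallest p-value, and *Eif4e*, *Eif2s1*, *Eef1a1*, *Eef2*, *Etf1* and *Rps2*. The called regulators, the other partners of ratios and the other genes named beside them were added after their values were seen.

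Alternatives were RLE, upper quartile and library size scaling, no filter beyond 1 count, 10 counts in every mouse, limma-voom 3.58.1, DESeq2 1.42.0, sva 3.50.0 with 4 surrogate variables on log2 CPM, offsets fitted in each library to transcript length or to GC content (lowess span 0.3, lengths known for 99.6% of genes), leaving out each mouse, and, added after seeing the data, svaseq on CPM and on counts. The fits were tested on simulated counts. Protein and qRT-PCR measurements were not analysed here.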

Additional observations from a re-analysis of the deposited data

Results flagged for a closer look

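For 25 named genes the highest and lowest mouse of each genotype was compared with its neighbours by Dixon's criterion, and 5 of 50 groups passed its 95% limit, where chance gives about 1 in 20. *Eif4e3* was 11.1 CPM in A226Y animal 29, and the next A226Y mouse stood at 8.47 CPM. *Eif6* was 117 CPM in the same animal, and the next was at 87.1 CPM. Animal 29 also had the highest summed macrophage (690 CPM) and neutrophil markers (37.3 CPM) of all mice, and their part in these values was not tested. *Eif4a2* was 162 CPM in A226Y animal 5, and the next A226Y mouse stood at 130 CPM. *Eif3a* was 102 CPM in WT animal 14, below the next at 132 CPM, and *Eif2b5* was 33.4 CPM in WT animal 33, the mouse with the lowest TMM factor, below the next at 38.9 CPM.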

How the results depend on the processing

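No called factor gene changed sign in any of the 30 alternative fits (29 for *Gspt2*, which was not tested when every mouse needed 10 counts). The 13 called members became 1 with surrogate variables from log2 CPM, 0 with svaseq on CPM (10 at an unadjusted p under 0.05) and 8 with the length offset, and all tested genes called became 248 with surrogate variables and 50 with svaseq on CPM. The 7 called regulators became 0 with surrogate variables, 0 with svaseq on CPM and 4 with svaseq on counts. The 4 called TOP genes became 1 with library size scaling, 1 without the filter, 1 with the GC offset, and 0 with the length offset, surrogate variables or svaseq on CPM. The causes were not tested. With library size scaling the members' split was 10 higher and 3 lower, and 67.9% of all called genes were higher against 50.8%; with the length offset it was 6 and 2, and with DESeq2 10 and 6.

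With 1 mouse left out, the count ranged from 10 to 14 for the members, from 6 to 10 for the regulators, from 1 to 4 for the TOP genes and from 1255 to 2560 for all genes, lowest without WT animal 14. The TOP count was 1 without WT animals 6, 13 or 24 or A226Y animals 7, 11, 18 or 32, and 2 without A226Y animals 3, 15 or 23 or WT animals 14 or 21. Without WT animal 6 the members' split was 10 higher and 3 lower. The called members kept their calls in every such fit except *Eef2*, *Eef1d* and *Eif4b*. The log2 fold change of *Rps2* stayed between −0.77 and −0.68, and between −0.96 and −0.67 in the other fits. The number of differing ratios was 6 to 8. Of the 43 uncalled members, 7 were called in some alternative. No paired analysis was made, as the labels give no litter or cage by which mice could be paired. Depth limits only the scarce genes, such as *Gspt2*.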
